A study of Mus musculus with 2 samples.

Results

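The mouse mitochondrial genome carries 37 genes, and all of them were followed in total RNA of ES-E14, a mouse embryonic stem cell line. The members were the rows of the gene tables whose identifier has, in GENCODE M21, a symbol starting with mt-. They were 37 of 43346 genes: 13 for mRNAs, 2 for ribosomal RNAs (rRNAs) and 22 for transfer RNAs (tRNAs). All data came from 1 group, ES-E14 cells of strain 129/Ola (stem cells of a male embryo, with no treatment named), in 2 libraries that the labels number as biological replicates 2 and 1. Both labels cite the same source sample, so the spread between the libraries may be technical, and no test between conditions was possible. The gene tables held 45573512 expected counts in replicate 2 and 43163300 in replicate 1. All 6 stem cell markers checked (Pou5f1, Nanog, Sox2, Zfp42, Esrrb and Dppa5a) stood at 17.2 TPM (the usual length-corrected relative level) or more in both libraries.

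Mitochondrial DNA is a small circle that is copied into long RNAs from both strands. The tRNAs lie between the longer genes, and cutting the tRNAs out of these precursors frees the mRNAs and rRNAs. The mRNAs encode core subunits of complexes I, III, IV and V of oxidative phosphorylation, and every other subunit comes from nuclear genes. The rRNAs build the ribosome that reads these mRNAs inside the organelle. Stretches of mitochondrial DNA have also been inserted in nuclear chromosomes, and such copies can take reads from the mitochondrial genes.

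The gene layout is shown at the junction that runs from the large rRNA through a tRNA into an mRNA (GRCm38, chrM:2656-2770, plus strand). All sequences here are from GENCODE M21 transcripts. The capitals are mt-Tl1, a leucine tRNA gene that ends directly before mt-Nd1.
mt-Rnr2 to mt-Nd1: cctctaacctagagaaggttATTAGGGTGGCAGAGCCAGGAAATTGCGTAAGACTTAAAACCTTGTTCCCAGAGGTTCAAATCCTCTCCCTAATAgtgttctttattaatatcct
Coding genes overlap at several places, and the overlaps of mt-Atp6 with mt-Co3 and of mt-Nd5 with mt-Nd6 are not shown. The 2 overlaps shown are in capitals, mt-Atp8 with mt-Atp6 at chrM:7907-7989 and mt-Nd4l with mt-Nd4 at chrM:10147-10193.
mt-Atp8 to mt-Atp6: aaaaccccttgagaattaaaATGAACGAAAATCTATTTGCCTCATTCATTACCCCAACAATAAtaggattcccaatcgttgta
mt-Nd4l to mt-Nd4: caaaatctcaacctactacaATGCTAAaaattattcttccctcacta

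The next sequences show where reads of a member and of a nuclear gene cannot be told apart. Chromosome 1 holds a stretch of mitochondrial origin from 24611535 to 24616197, on the minus strand, annotated as 7 pseudogenes. Gm28661 matches mt-Co2 without a mismatch over 681 bases, Gm10925 matches mt-Atp6 over 678 and Gm28437 matches mt-Co3 over 783. These copies differ from the mitochondrial genes only where the annotated models end. In the ends shown here, the capitals are the bases of the mitochondrial model past the end of the copy's model (chrM:7657-7696 and chr1:24614885-24614921, chrM:8568-8607 and chr1:24613974-24614010, chrM:9351-9390 and chr1:24613189-24613227).
mt-Co2: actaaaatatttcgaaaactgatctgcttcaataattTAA
Gm28661: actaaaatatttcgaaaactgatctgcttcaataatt
mt-Atp6: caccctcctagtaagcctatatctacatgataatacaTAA
Gm10925: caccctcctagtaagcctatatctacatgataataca
mt-Co3: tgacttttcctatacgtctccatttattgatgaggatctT
Gm28437: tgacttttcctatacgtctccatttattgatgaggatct

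The other 4 copies of the stretch match part or nearly all of mt-Co1, mt-Nd3, mt-Nd4l and mt-Nd4. Gm10222 matches mt-Nd4l over 294 bases and Gm28439 the start of mt-Nd4 over 876, both without a mismatch. Gm29216 matches the last 483 bases of mt-Co1 with 1 mismatch, A1066T, and Gm28438 matches mt-Nd3 over 345 bases with 1 mismatch, T3C. Positions count from 1 at the start of the mitochondrial gene, whose base is given first. The base that differs is in capitals (chrM:6390-6413 and chr1:24616165-24616188, chrM:9459-9481 and chr1:24613097-24613119).
mt-Co1: ggaAttgttttatccaactcatcc
Gm29216: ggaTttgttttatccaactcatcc
mt-Nd3: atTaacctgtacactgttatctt
Gm28438: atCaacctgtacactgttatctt
The order of the genes is the same on both chromosomes, and 5 of the 6 spacings between neighbouring copies are equal to those on chromosome M. The exception lies between mt-Nd3 and mt-Nd4l, with 73 bases on chromosome M and 74 on chromosome 1.

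Mitochondrial mRNAs took 1.17% of all gene counts in replicate 2 (95% Wilson interval 1.169 to 1.175%) and 0.992% in replicate 1 (0.989 to 0.995%). The rRNAs took 0.515% in replicate 2 (0.513 to 0.517%) and 0.229% in replicate 1 (0.227 to 0.230%). The intervals cover counting error only. The mean shares were 1.08 ± 0.128% for the mRNAs and 0.372 ± 0.202% for the rRNAs (SD, n = 2). On their 11 nuclear copies, found by sequence, lay another 0.483% of counts in replicate 2 and 0.411% in replicate 1. A member was called detected at 1 TPM or more in both libraries. By this limit 13 of 13 mRNAs, 2 of 2 rRNAs and 0 of 22 tRNAs were detected, 15 of 37 in all, beside 24.8% of all genes and 46.3% of protein-coding genes.

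Since identical sequences cannot be told apart, levels are also given summed with the nuclear copies. For this, the expected counts of a gene and its copies were added and divided by the effective length of the mitochondrial gene, on the TPM scale of the library. Effective length is the number of positions in a transcript at which a fragment can start. On this scale the 3 mRNAs for complex IV, cytochrome c oxidase, led all others, followed by the pair for complex V, the ATP synthase. The place of mt-Atp8 in that pair depends on the correction for length, as given below. The mRNAs for complex I, which oxidises NADH, were the lowest apart from mt-Nd3 and mt-Nd1.

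**Figure D1:**
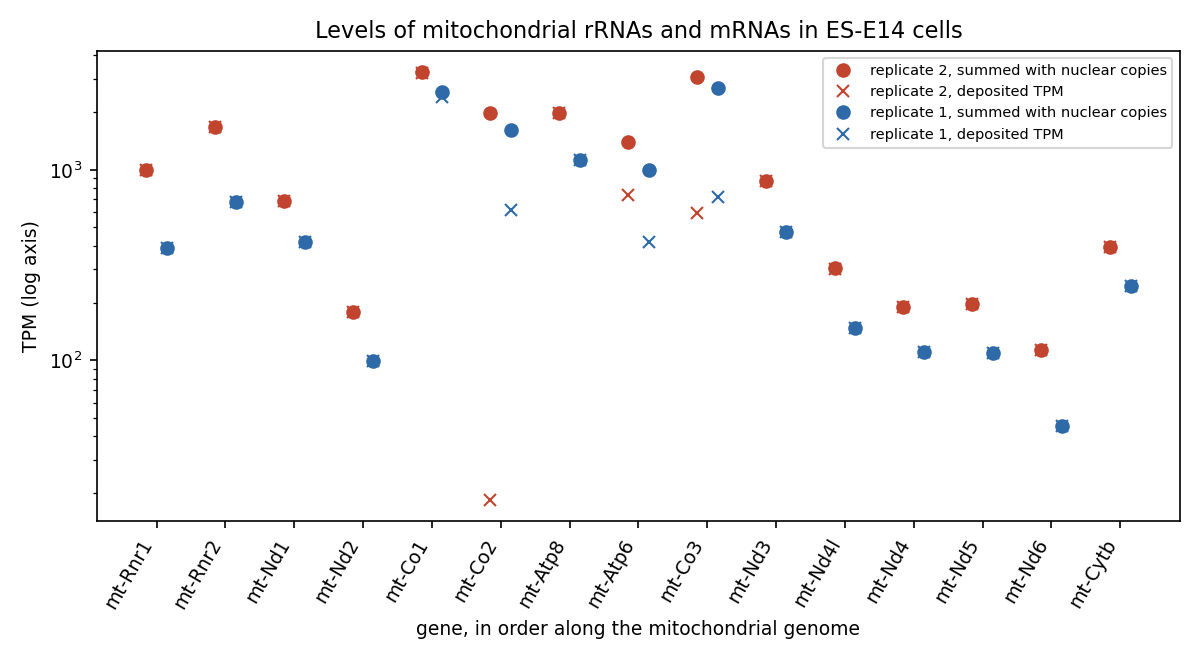
Levels of the 2 rRNAs and 13 mRNAs in the order of their genes, on a log axis of TPM, with circles for levels summed with nuclear copies and crosses for deposited TPM in replicates 2 and 1. The mt-Co2 cross of replicate 2 stands at 18.6 TPM, while its circle stands at 1988 TPM.

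mt-Co1 (ENSMUSG00000064351.1; chrM:5328-6872) encodes the catalytic subunit of complex IV, where oxygen is reduced. Its deposited level was 3220.1 TPM in replicate 2, and in replicate 1 it was 2412 TPM, or 2816 ± 572 TPM (SD, n = 2). That made it rank 2 among protein-coding genes in replicate 2 and rank 1 in replicate 1. Summed with its copies it stood at 3255 TPM in replicate 2, with 2570.4 TPM in replicate 1.

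mt-Co3 (ENSMUSG00000064358.1; chrM:8607-9390) encodes a core subunit beside the catalytic one. The deposited level was only 594 TPM in replicate 2, and 719 TPM for replicate 1. The summed level was 3068 TPM in replicate 2, and 2672 TPM for replicate 1. It thus held 21.0% of the summed level of the 13 mRNAs in replicate 2 and 25.1% in replicate 1. For mt-Co1 these shares were 22.2% in replicate 2 and 24.2% in replicate 1, so the order of the pair changed between the libraries and they did not differ beyond their spread.

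mt-Co2 (ENSMUSG00000064354.1; chrM:7013-7696) encodes the subunit that takes up electrons from cytochrome c. It was listed at 18.6 TPM in replicate 2, with 617 TPM in replicate 1. Summed with its copies it stood at 1988 TPM in replicate 2, with 1624 TPM in replicate 1, rank 3 of the 13 mRNAs in both libraries. Among protein-coding genes its deposited level had rank 2049 in replicate 2 and rank 30 in replicate 1. The level of mt-Co1 over that of mt-Co2 was 173 in replicate 2 and 3.91 in replicate 1 as deposited. Summed with copies it was 1.64 in replicate 2 and 1.58 in replicate 1, so the large difference between the libraries lay in the split with the copies.

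The ATP synthase mRNAs came next. mt-Atp8 (chrM:7766-7969), for a small membrane subunit, had 1981 TPM in replicate 2, with 1123 TPM in replicate 1. Its share of the 13 mRNAs was 13.5% in replicate 2 and 10.5% in replicate 1. For mt-Co2 the share was 13.6% in replicate 2 and 15.3% in replicate 1, so in replicate 2 the pair stood level on this scale. Per kb of full length, without the correction, mt-Atp8 had 31917 counts in replicate 2 and 20446 in replicate 1. That was below mt-Co2 with copies, at 112873 and 97348, and mt-Nd1, at 42389 and 27293. It was also below mt-Nd3 with its copy in replicate 2, at 35184, but not in replicate 1, at 20290. mt-Atp6 (chrM:7927-8607) encodes the subunit that lets protons through the membrane. Its summed level was 1405 TPM in replicate 2 and 1000.3 TPM in replicate 1, against a deposited level of 740.2 TPM and 415 TPM in the same libraries. mt-Cytb (chrM:14145-15288), the only mitochondrial gene for complex III, stood at 391 TPM in replicate 2, with 246 TPM in replicate 1.

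Of the 7 mRNAs for complex I, mt-Nd3 (chrM:9459-9806) was highest, at 878 TPM summed in replicate 2, with 474 TPM in replicate 1. mt-Nd1 (chrM:2751-3707), whose protein lies by the quinone site, followed at 687 TPM in replicate 2, with 419.9 TPM in replicate 1. mt-Nd4l (chrM:9877-10173), for a small membrane subunit of the pump, stood at 304 TPM summed in replicate 2, with 147 TPM in replicate 1. The genes for the large proton-pumping subunits lay lower and close together. mt-Nd5 (chrM:11742-13565) had 197 TPM in replicate 2, with 109 TPM in replicate 1. mt-Nd4 (chrM:10167-11544) had 190.3 TPM in replicate 2, with 110.3 TPM in replicate 1. mt-Nd2 (chrM:3914-4951) had 179.6 TPM in replicate 2, with 99.7 TPM in replicate 1. The order of mt-Nd5 and mt-Nd4 changed between the libraries.

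mt-Nd6 (ENSMUSG00000064368.1; chrM:13552-14070), the only mRNA gene on the minus strand, was the lowest of the 13 in both libraries by summed level. It stood at 113 TPM in replicate 2, with 45.1 TPM in replicate 1. Its level over that of mt-Nd5, whose gene overlaps its end on the opposite strand, was 0.571 in replicate 2 and 0.412 in replicate 1. No source used here states whether the counting used strand. Without it, reads of opposite strands cannot be told apart, in the overlap or along the rest of mt-Nd6.

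By complex, the 3 mRNAs of complex IV held 56.8% of the summed level of the 13 mRNAs in replicate 2 and 64.5% in replicate 1. The 2 of complex V held 23.1% and the 7 of complex I 17.4% in replicate 2, with 19.9% and 13.2% in replicate 1. The share of complex V includes mt-Atp8, whose level depends on the correction for length. mt-Cytb held 2.67% in replicate 2 and 2.31% in replicate 1.

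The rRNAs come from the same precursor as the mRNAs behind them. mt-Rnr2, the large-subunit rRNA (chrM:1094-2675), stood at 1668 TPM in replicate 2, with 674 TPM in replicate 1. mt-Rnr1, the small-subunit rRNA (chrM:70-1024), stood at 999 TPM in replicate 2, with 386 TPM in replicate 1. The level of mt-Rnr2 over that of mt-Rnr1 was 1.67 in replicate 2 and 1.74 in replicate 1, or 1.71 ± 0.0530 (SD, n = 2). Neither rRNA gene had a nuclear gene that matched at 95% identity or more over 200 bases. Both rRNAs stood below mt-Co1 and mt-Co3 summed with copies in each library. No source used here states whether ribosomal RNA was removed before sequencing, so these levels need not stand for those in the cells.

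The 22 tRNA genes are 59 to 75 bases long and had 0 counts in both libraries. All had an effective length of 0. For a count of 0, the limit of 3 counts is a share of 6.58e-06% in replicate 2 and 6.95e-06% in replicate 1. In general 888 genes of the table were no longer than the longest of these tRNAs, and 0 of them had a count in either library. The shortest gene with a count had 108 bases in replicate 2 and 110 bases in replicate 1. Length minus effective length had a median of 159.65 bases over long single-transcript genes in replicate 2 and 156.2 bases in replicate 1. Longer genes could have counts with an effective length of 0, as 86 of 5261 such genes did in replicate 2 and 80 of 5176 in replicate 1. The labels give a size range of 300 to 350, with no unit. Since no gene as short as these tRNAs had a count, their counts of 0 do not show whether they were present in the cells.

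The split of counts between the mitochondrial genes and their copies differed by gene and by library. Of the counts of mt-Co2 and Gm28661, 99.1% were placed on Gm28661 in replicate 2 and 62.0% in replicate 1. The sum of that pair was 77166 counts in replicate 2 and 66558 in replicate 1. For mt-Co3 and Gm28437 the share on the copy was 80.7% of 141864 counts in replicate 2 and 73.1% of 130333 counts in replicate 1. For mt-Atp6 and Gm10925 it was 47.3% of 54229 counts in replicate 2 and 58.5% of 40778 counts in replicate 1. The sums of these pairs differed less between the libraries than the mitochondrial members alone. Their ratio was 1.16 for mt-Co2, 1.09 for mt-Co3 and 1.33 for mt-Atp6, against 0.0285, 0.783 and 1.69 for the mitochondrial counts. mt-Co2 alone had 721 counts in replicate 2, against 25288 in replicate 1.

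The other copies on chromosome 1 took a smaller share. Gm29216 held 1.07% of the counts of its pair with mt-Co1 in replicate 2 and 6.15% in replicate 1. Gm28438 held 0.403% of the pair with mt-Nd3 in replicate 2 and 0.913% in replicate 1. Gm10222 held 24.1 counts in replicate 2 and 0 in replicate 1, beside 3064 and 1613 counts on mt-Nd4l. Gm28439 had 0 counts in both, with 17172 on mt-Nd4 in replicate 2 and 10465 in replicate 1. Of the 1545 bases of mt-Co1 and the 1378 of mt-Nd4, the copies match 483 and 876, while Gm10222 matches all but the last bases of mt-Nd4l.

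**Figure D2:**
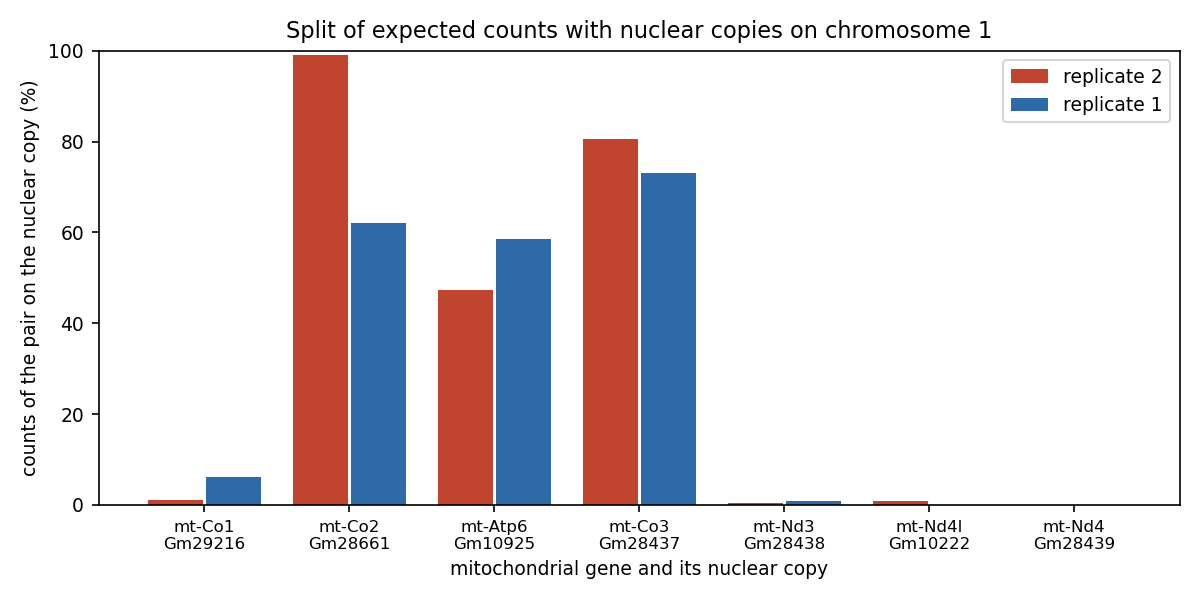
Share of the expected counts of each pair placed on the nuclear copy of chromosome 1, in percent, for replicates 2 and 1. Of the 7 pairs, those of mt-Co2, mt-Atp6 and mt-Co3 had 47.3% or more of their counts on the copy in both libraries, while the others stood at 6.15% or less.

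Another stretch on chromosome 2 is less alike, and few counts were placed there. Gm13340 matches all 1545 bases of mt-Co1 at 97.6% identity and held 48.1 counts in replicate 2 and 40.5 in replicate 1. Gm13341 matches mt-Co2 at 95.9% and held 39.2 counts in replicate 2 and 27.8 in replicate 1. Gm13339, with 96.7% identity to the end of mt-Nd2, and Gm4076 on chromosome 13, with 95.2% identity to part of mt-Nd5, had 0 counts in both libraries.

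The authors' tables also give a posterior standard deviation of each count. It was 14009 counts for mt-Co2, 29491 for mt-Co3 and 5786 for mt-Atp6 in replicate 2, and 13597, 27355 and 4981 in replicate 1. For the pairs these were 18.2%, 20.8% and 10.7% of the summed counts in replicate 2. It was 296 counts for mt-Co1 in replicate 2 and 261 in replicate 1. For mt-Nd4l it was 172 counts in replicate 2 and 76.4 in replicate 1, which was 5.56% and 4.73% of the pair with Gm10222. For mt-Nd3 it was 32.4 counts in replicate 2 and 36.9 in replicate 1. mt-Nd4 had 2.48 in replicate 2 and 1.86 in replicate 1, and mt-Nd2 had 0.03 in replicate 2 and 0.05 in replicate 1. For mt-Rnr1, mt-Rnr2, mt-Nd1, mt-Atp8, mt-Nd5, mt-Nd6 and mt-Cytb it was 0 in both libraries.

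The deposited intervals of the posterior TPM, whose level is not stated, were also wide for mt-Co2 and mt-Co3. That of mt-Co2 ran from 50.5 to 1216 TPM in replicate 2 and from 492 to 1475 TPM in replicate 1. That of mt-Co3 ran from 338 to 2241 TPM in replicate 2 and from 418 to 1954 TPM in replicate 1. The deposited TPM of mt-Co2 in replicate 2 lay below the lower bound of its own interval. In all, the deposited TPM lay outside the interval for 3 of the 15 detected members in replicate 2 (mt-Co1, mt-Co2 and mt-Rnr2) and for 1 in replicate 1 (mt-Co1). For mt-Co1 and mt-Rnr2 it lay just above the upper bound. In replicate 2 mt-Co1 had 3220.1 against a bound of 3214.8 TPM, and mt-Rnr2 had 1668.4 against 1666.7 TPM. In replicate 1 mt-Co1 had 2411.8 against 2409.0 TPM.

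**Figure D3:**
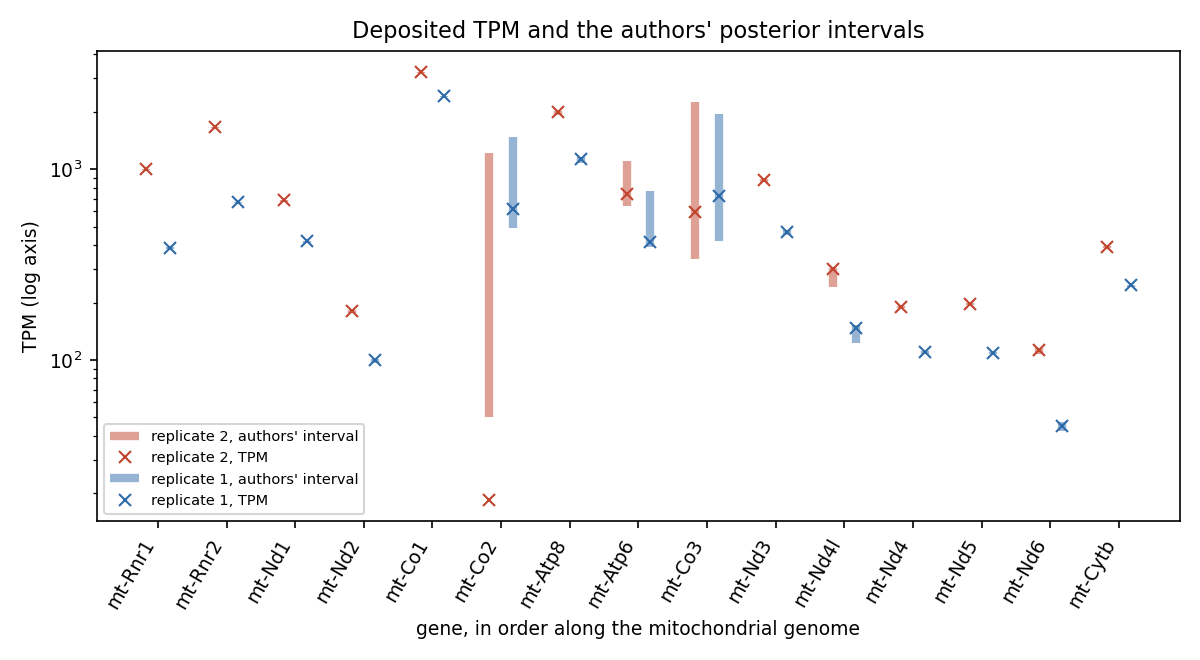
Deposited TPM (crosses) and the authors' posterior intervals (bars) of the 15 detected members on a log axis, for replicates 2 and 1. The bars of mt-Co2, mt-Co3 and mt-Atp6 are long, and the mt-Co2 cross of replicate 2 at 18.6 TPM lies under its bar.

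The coding pairs whose overlaps were shown above share an mRNA, which gives a check on the length correction. The level of mt-Atp8 over that of mt-Atp6, summed with its copy, was 1.41 in replicate 2 and 1.12 in replicate 1. Per full length, without the correction for fragment size, the same ratio was 0.401 in replicate 2 and 0.341 in replicate 1. mt-Atp8 has 204 bases but an effective length of 44.4 bases in replicate 2 and 47.8 in replicate 1, so its TPM rests on a small divisor. Of these bases, the last 43 overlap mt-Atp6 and match Gm10925 without a mismatch. The first 161 lie on chromosome M between the parts of mt-Co2 and mt-Atp6 that match Gm28661 and Gm10925. The spacing there is 233 bases on both chromosomes, with no gene model among the matches in that stretch of chromosome 1. For mt-Nd4l over mt-Nd4 the ratio was 1.60 in replicate 2 and 1.34 in replicate 1, and per full length 0.834 and 0.715 in the same libraries.

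As deposited, 11 of 13 mRNAs and both rRNAs stood higher in replicate 2, mt-Co2 and mt-Co3 lower. Summed with copies, all 13 mRNAs stood higher, as did 71.7% of the protein-coding genes that averaged at least 1 TPM. The summed level of replicate 2 over that of replicate 1 had a median of 1.73 over the 13 mRNAs, with a range of 1.15 to 2.50. Across protein-coding genes that averaged at least 1 TPM the median ratio was 1.17. It was taken with 1 TPM added to both levels, which draws ratios of low genes toward 1. On log2 values with that addition the median difference was 0.23 for those genes and 0.78 for the 13 mRNAs summed with copies. With TPM rescaled to the protein-coding genes of the nucleus, 11 of 13 mRNAs stood higher, with a median ratio of 1.41. The exceptions were mt-Co3, at 0.936, and mt-Co2, at 0.998. Of the 13189 protein-coding genes that averaged at least 1 on the rescaled scale, 49.3% stood higher. That set is larger than the 10480 genes behind the 71.7%.

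The size of the ratio differed by gene. The level in replicate 2 was 2.59 times that in replicate 1 for mt-Rnr1, 2.48 times for mt-Rnr2, 2.50 times for mt-Nd6 and 2.06 times for mt-Nd4l. The other mRNAs of complex I lay between 1.64 and 1.85, mt-Atp8 at 1.76 and mt-Cytb at 1.59. The mRNAs with 1% or more of their summed counts on copies were the lowest: mt-Atp6 at 1.40, mt-Co1 at 1.27, mt-Co2 at 1.22 and mt-Co3 at 1.15. That division was made after the values were seen. These 4 were also 4 of the 5 most abundant mRNAs by summed level.

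**Figure D4:**
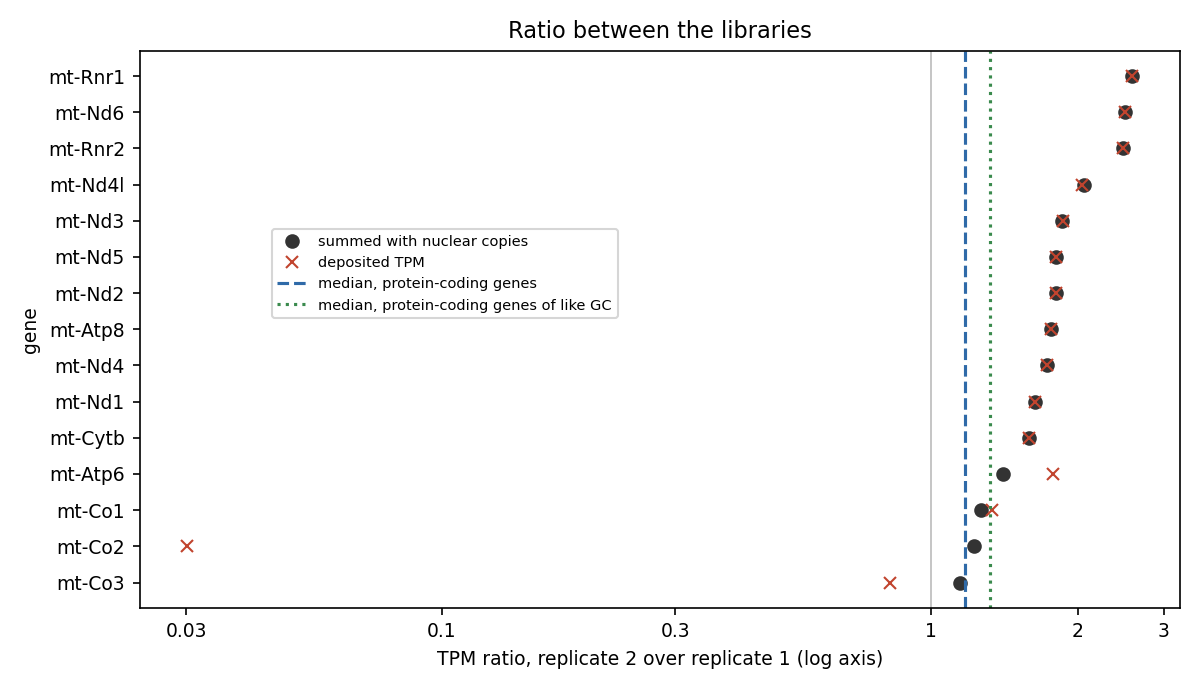
Level in replicate 2 over that in replicate 1 for each detected member on a log axis, with circles for levels summed with nuclear copies and crosses for deposited TPM. Lines mark the medians of protein-coding genes, at 1.17, and of those with a GC content like the mRNAs', at 1.32. The lines were taken with 1 TPM added to both levels, the circles and crosses without. All circles lie to the right of 1, and the mt-Co2 cross lies at 0.0301.

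Differences of 2-fold or more, taken on log2(TPM + 1) of the deposited values, were found for 5 of the 15 detected members. mt-Rnr1, mt-Rnr2, mt-Nd4l and mt-Nd6 stood higher in replicate 2, and mt-Co2 lower. Of all genes that averaged at least 1 TPM, 4.11% were 2-fold apart, 3.24% higher in replicate 2 and 0.866% lower. Summed with copies, the same 4 remained higher, while mt-Co2 had a log2 difference of 0.29 in place of -4.98. Rescaled to protein-coding genes, 3 members were 2-fold higher and 1 lower, beside 3.26% and 3.92% of genes averaging at least 1 on that scale. With TMM-scaled counts 2 were 2-fold higher and 1 lower. The share over all genes on that scale is not given here, so that count has no background beside it. With 1 library on each side there is no replicate check of any of these differences.

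Several other properties of the libraries also differed between replicates 2 and 1. The GC content of the 13 mRNAs ran from 31.9 to 41.1%. The 961 other protein-coding genes in that range had a median log2 difference of 0.40 in replicate 2 over replicate 1, against 0.21 for the 9505 above it. For the 13 mRNAs it was 0.82 as deposited and 0.78 summed with copies. The nuclear rRNA models Gm26917 and Gm42418 took 16.4% of counts in replicate 2 and 26.4% in replicate 1. Of 6 feeder fibroblast markers, 5 were at 1 TPM or more in both libraries and Lum was at 0, while 4 of the 6 were higher in replicate 2. Their summed level was 153 TPM in replicate 2, and 47.3 TPM for replicate 1. The part of these properties in the ratios was not tested. In bulk RNA, fewer cells of a type and less RNA per cell cannot be told apart.

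Nuclear genes that serve the mitochondrial genome were expressed throughout. Apart from Polrmt, Tfam, Lrpprc, Slirp and Mrps6, genes of these lists are named as the highest or the lowest by the mean of both libraries. Of 197 genes in 9 lists, 196 were at 1 TPM or more in both libraries, beside 46.3% of protein-coding genes. The exception, Mterf1b, stood at 0.96 TPM in replicate 2, with 0.48 TPM in replicate 1. Its expected counts were fractional, 85.68 in replicate 2 and 44.88 in replicate 1, so some of its reads were shared. No sum with other genes was made for it. Polrmt, the RNA polymerase of mitochondria, had 25.3 TPM in replicate 2, with 30.4 TPM in replicate 1. Tfam, which packs mitochondrial DNA and starts its transcription, had 17.4 TPM in replicate 2, with 12.7 TPM in replicate 1.

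Genes for RNA processing and stability were at 1 TPM or more in 20 of 20 cases, with a list median of 14.5 TPM in replicate 2, and 9.92 TPM for replicate 1. Lrpprc and Slirp, whose proteins together keep mitochondrial mRNAs stable, stood at 21.3 and 42.0 TPM in replicate 2 and 16.3 and 23.9 TPM in replicate 1. Tbrg4 was the highest of that list and Fastkd3 the lowest, at 42.2 and 2.89 TPM in replicate 2 and 43.7 and 1.90 TPM in replicate 1. The 8 replication genes all passed, led by Polg, the DNA polymerase of mitochondria, at 37.5 TPM in replicate 2, with 45.5 TPM in replicate 1, then Ssbp1. Top1mt was the lowest of them, at 2.01 TPM in replicate 2, with 2.08 TPM in replicate 1.

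The 12 translation factors also passed, led by the elongation factor genes Tufm and Gfm1, at 26.6 and 23.4 TPM in replicate 2 and 19.6 and 17.9 TPM in replicate 1. Mtrf1, a release factor gene, was lowest, at 1.42 TPM in replicate 2, with 1.49 TPM in replicate 1. All 77 genes for mitochondrial ribosomal proteins passed, with a median of 16.6 TPM in replicate 2, and 11.4 TPM for replicate 1. Mrpl17 and Mrpl2 led them, and Mrpl35 was the lowest by the mean of both libraries, at 4.30 TPM in replicate 2, with 2.31 TPM in replicate 1. The median log2 difference of replicate 2 over replicate 1 was 0.45 for this list and 0.37 over all 197 genes. Of the 197, 1 was 2-fold higher in replicate 2 and 1 lower, beside 3.24% and 0.866% of all genes that averaged at least 1 TPM. The higher gene, named after its value was seen, was Mrps6, for a protein of the small ribosomal subunit, at 6.97 TPM in replicate 2, against 2.53 TPM in replicate 1. The lower gene was Ndufa4l2, listed with complex I, at 1.18 TPM in replicate 2, against 3.99 TPM in replicate 1.

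The mRNAs from the mitochondrial genome stood above those of their nuclear partners in each complex by median, summed with copies or as deposited. For complex IV the median summed level of the 3 mitochondrial mRNAs was 3068 TPM in replicate 2, against 195 TPM for 11 nuclear subunits. In replicate 1 it was 2570.4 TPM, against 159.7 TPM. As deposited, without the copies, the median of the 3 was 594 TPM in replicate 2, with 719 TPM in replicate 1. In replicate 2 the deposited mt-Co2 level, 18.6 TPM, lay below every nuclear subunit listed, the lowest of which was Cox7a2 at 56.7 TPM. For complex V it was 1693 TPM, against 102 TPM for 15 nuclear subunits in replicate 2, and 1061 TPM, against 71.1 TPM, in replicate 1. As deposited, the median for complex V was 1360.4 TPM in replicate 2, with 769 TPM in replicate 1. Both medians of complex V include mt-Atp8, whose level depends on the correction for length. The highest nuclear members were Cox4i1, at 451 TPM in replicate 2, with 527 TPM in replicate 1, and Atp5b, at 425.5 TPM in replicate 2, with 319 TPM in replicate 1.

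The difference was smaller for complex I. The median of the 7 mitochondrial mRNAs was 197 TPM, against 44.2 TPM for 37 nuclear genes in replicate 2, and 110.3 TPM, against 40.9 TPM, in replicate 1. The nuclear list includes Ndufa4, which is also counted with complex IV. In replicate 2, 3 of the 7 stood above every nuclear gene of the list, and 2 did in replicate 1. The highest nuclear gene in replicate 2 was Ndufa4, at 222 TPM, followed by Ndufa7, at 153.8 TPM. mt-Nd5, mt-Nd4 and mt-Nd2 lay between these levels, so the count in replicate 2 depends on Ndufa4. In replicate 1 the highest was Ndufa7, at 174.9 TPM. mt-Cytb stood above all 9 nuclear subunits of complex III in replicate 2, and below Uqcr11 (262 TPM) in replicate 1.

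**Figure D5:**
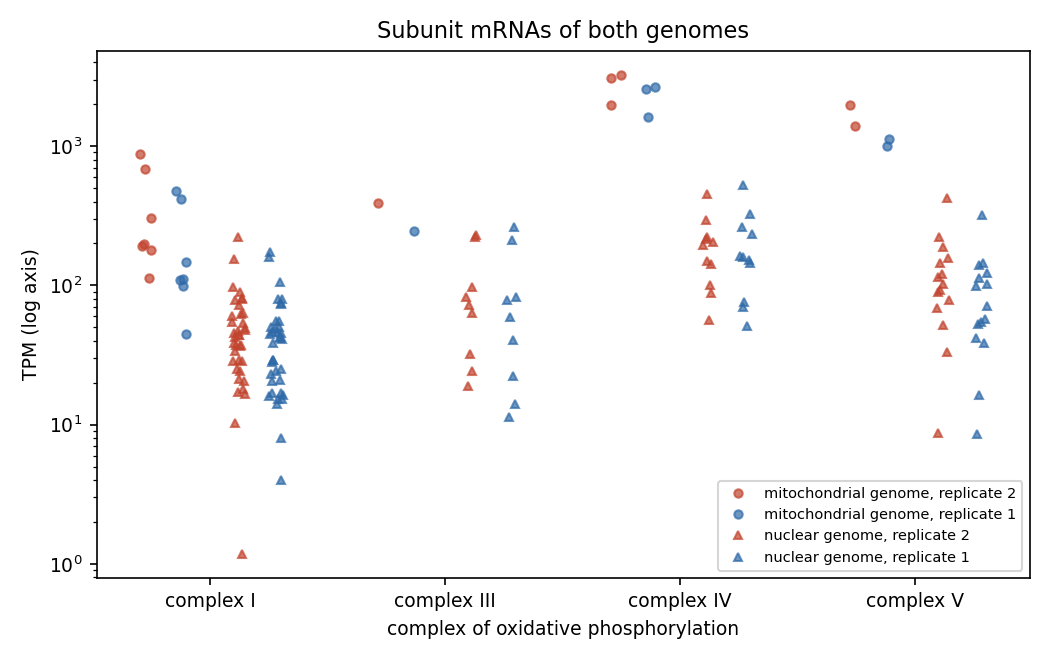
TPM of subunit mRNAs of complexes I, III, IV and V on a log axis, with circles for mitochondrial genes (summed with nuclear copies) left of triangles for nuclear genes, in replicates 2 and 1. On this summed scale the circles of complexes IV and V lie above all triangles of the same complex in both libraries.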

How the data were processed

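Total RNA libraries of 1 group of 2 were used. Per the deposited text files, the authors aligned reads to mm10 and quantified genes with an annotation named M4. No source used here names their aligner or quantifier. The deposited gene tables hold expected counts (fractional where reads are shared), TPM, FPKM and lengths. The authors' posterior counts and TPM bounds were taken as deposited signal. The deposited transcript tables give the percent of a gene's output by transcript, which was 100 for every detected member. Symbols came from GENCODE M21 (GRCm38, the assembly of mm10): 42462 of 43346 genes matched, and all 37 members matched in identifier and length. The others held 9.11% of counts in replicate 2 and 6.79% in replicate 1. Rows that are not genes (26345, with 15 and 1 counts in the same order) were left out.

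Copies were nuclear genes whose M21 transcript matched in sense a mitochondrial gene over 200 bases or more at 95% identity or more (BLAST 2.17.0); the plan named the genome sequence, which was not used here. Ratios are replicate 2 over replicate 1. Log2 differences use a pseudocount of 1, as do the median ratios of 1.17 and 1.32 over protein-coding genes. Expected counts were rounded only for TMM factors (edgeR 4.0.16) and DESeq2 1.42.0 size factors, in R 4.3.3. The remaining work was done in Python 3.11.15 (matplotlib 3.10.9, scipy 1.17.1, pandas 2.3.3, numpy 2.4.6). The calculation of a ratio was run on simulated counts that held known changes and counting error only. They had no shared reads and no lengths, so that run cannot show how well the TPM ratios or the sums with copies hold. Chi-square over its degrees of freedom between the libraries was 305 over 19050 genes, so they are separate libraries. The members, the lists and the rule for named genes (all detected members, up to 8 copies by count, and per nuclear list the 2 highest and the lowest gene, with Polrmt, Tfam, Lrpprc and Slirp added) were chosen with earlier results of these data known. Copies with 0 counts, and Mrps6, were named after their values were seen. Alternatives were other TPM limits, posterior mean TPM, FPKM, full length, TMM, DESeq2 and protein-coding scaling, other denominators and each library alone.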

Additional observations from a re-analysis of the deposited data

How the results depend on the processing

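The share of counts on mitochondrial mRNAs, 1.08%, was 1.37% without the nuclear rRNA models, 1.83% over protein-coding genes and 1.53% with nuclear copies added. The share of mt-Co1 among mRNA levels, 34.4% as deposited, was 31.4% with posterior mean TPM, 61.3% in counts, 43.9% per full length and 23.2% summed with copies. The median log2 difference of the mRNAs, 0.82, was 0.78 with posterior mean TPM and also when summed with copies, 0.67 with FPKM, 0.48 with TMM factors, 0.49 with DESeq2 size factors, 0.52 when rescaled and 0.30 as a mean, to which mt-Co2 contributes -4.98. Of 3 mRNAs 2-fold apart, 1 was left with TMM factors, and 2 under each other scaling tried. The share of all genes 2-fold apart is given above only for deposited and rescaled TPM. The counts on the other scales thus have no background beside them. mt-Co2 changed its direction, to 0.29, when summed with Gm28661 and Gm13341, whose counts are added there by construction. The log2 ratio of mt-Rnr2 over mt-Rnr1, 0.77, was 1.61 in counts and 0.88 per full length. The share of pair counts on copies, 32.3%, was 78.2% for the pairs of Gm28661 and Gm28437 alone. Taken over posterior mean TPM, which is corrected for length, in place of counts, the share was 38.2%. The count of 15 detected members was the same under every alternative, which could hardly have changed it. The tRNAs had 0 counts, and the lowest deposited level of a detected member was 18.6 TPM (mt-Co2 in replicate 2). Of the 197 nuclear genes, 196 passed as deposited, 197 when rescaled and 164 at 5 TPM. The share of all genes at 5 TPM is not given here. The cause of these shifts was not tested. Without either library the shares ran from 0.992 to 1.17% for mRNAs and from 0.229 to 0.515% for rRNAs. No paired analysis was possible because there is only 1 group. Depth did not limit the detected members, while the tRNAs had an effective length of 0.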

Other observations

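Older nuclear copies of mitochondrial genes, below the identity used for sums, took almost no counts. On chromosome 4, Gm11407, Gm11408 and Gm11410 match mt-Nd5, mt-Nd6 and mt-Cytb at 92.3%, 93.6% and 92.9% identity over 1058, 519 and 1142 bases. All had 0 counts in both libraries. Gm11512 on chromosome 11, with 90.7% identity to mt-Co1 over 654 bases, had 5 counts in replicate 2 and 3 in replicate 1. Gm20594 on chromosome 6, at 88.5% identity to 435 bases of mt-Rnr2, had 0 counts in both.

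A single transcript of Cep295 on chromosome 9 holds stretches like 4 mitochondrial tRNAs that lie side by side on chromosome M, mt-Ta, mt-Tn, mt-Tc and mt-Ty, at 84.1 to 91.5% identity. That transcript was not analysed here. The gene as a whole had 4753 counts in replicate 2 and 5130 in replicate 1, and where along it the reads lie was not analysed.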
